A study of Sus scrofa with 19 samples.

Results

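Left ventricular (LV) tissue of pigs treated with an anthracycline was compared with LV tissue of pigs under pressure overload. The comparison took the 10 libraries titled DOX1 to DOX5 and MYO1 to MYO5 as 1 side and the 3 libraries titled Hyper1 to Hyper3 as the other, 13 of the 19 libraries of the series. The members are given by the sample titles, and no measured value enters the rule. Differences were tested over all genes, and the 11648 autosomal genes among the 13552 genes tested are reported.

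Female large white pigs were used according to the labels, and each library came from 1 pig, from the anterior wall of the LV. DOX pigs received doxorubicin and MYO pigs Myocet, a liposomal form of doxorubicin, at 60 mg/m2 in each of 3 cycles on days 1, 22 and 43. These experiments ended early, at 3 months, because the health of the animals was poor. Hyper pigs carried a bare metal stent of 9 mm diameter and 20 mm length in the descending thoracic aorta, a model of aortic isthmus stenosis that narrows relative to the vessel as the animal grows, and were followed for 6 months. The DOX and MYO data were taken by the study from an earlier one, so treatment, length of follow-up and series of libraries coincide with the groups and cannot be told apart. The remaining libraries, 3 RemoLV (infarction with reperfusion) and 3 Control, took part in the filter, the scaling and the shared estimate of the spread, and their levels are given for a few genes.

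Anthracyclines insert into DNA and trap topoisomerase II, and they generate reactive oxygen species by redox cycling. In the heart they are known for loss of cardiomyocytes, mitochondrial damage and replacement fibrosis. Pressure overload raises wall stress, to which cardiomyocytes respond with hypertrophy and fibroblasts with interstitial matrix. In both settings, the failing ventricle is known to release natriuretic peptides and to shift between fatty acids and glucose as fuels.

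Several library properties were compared between the groups. Counts on genes were 10147011 to 15975201 per library in DOX and MYO and 15634520 to 16359107 in Hyper, which overlapped (exact 2-sided permutation test, adjusted p = 0.0777). Mitochondrially encoded genes took 12.7% to 19.7% of the counts in the 10 libraries (median 15.0%) and 22.2%, 26.2% and 18.6% in Hyper1 to Hyper3 (2-sided exact permutation test with 286 ways to draw 3 of 13, p = 0.0105, adjusted p = 0.0262 over 20 library measures). Although the labels give female pigs, 4 Y-linked genes summed to 172 to 252 CPM (counts per 1000000 counts of the library, with TMM scaling) in all 10 DOX and MYO libraries and to 0.206, 0 and 0.0670 CPM in Hyper. The helicase gene DDX3Y, for example, was at 96.1 CPM or more in each of the 10 and at 177 CPM at most. Y-linked expression therefore coincides with the groups as well, and only autosomal genes were counted. Ventricular identity was present on both sides, with MYH7, the slow myosin heavy chain of the ventricle, from 28970.0 to 40291 CPM (median 35535) in the 10 libraries and at 32955, 41743 and 41764 CPM in Hyper. The 5 ventricular markers, of which only the transcription factor gene IRX4 was called (higher), summed from 44968 to 59472 CPM (median 51763) in the 10 libraries and to 55791, 65984 and 63140.0 CPM in Hyper1, Hyper2 and Hyper3 (exact 2-sided permutation test, adjusted p = 0.0262, but p = 0.913 on CPM without TMM scaling). The deposited expression table gives 8 of the 19 libraries another group than the titles of the count files, and exchanges the names Hyper1 and Hyper3. The names of the count files are used here. Each of the 10 libraries is DOX or MYO and each of the 3 is Hyper in both namings, although DOX5 and MYO1 are exchanged. DOX1 stood apart, with a Pearson correlation of log2 CPM of 0.959 to 0.977 with the other DOX and MYO libraries, which reached at least 0.978 among themselves, and without it 143 DEGs were found (137 with it). Hyper1 stood apart in Hyper, with a correlation of 0.976 to 0.980 with Hyper2 and Hyper3 and its highest, 0.990, with Control2, and without it 98 DEGs were found. In tissue RNA, fewer cells of a type and less RNA per cell cannot be told apart.

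Of the autosomal genes, 137 were differentially expressed (DEGs, which combine an adjusted p up to 0.05 with a log2 fold change of 2 or more in size; 1.18% of those tested), with 83 higher (0.713%) and 54 lower (0.464%) in DOX and MYO. At the adjusted p alone, called the FDR threshold here, 3808 genes (32.7%) were called (quasi-likelihood test of edgeR, p-values adjusted after Benjamini-Hochberg), of which 1884 (16.2%) were higher and 1924 (16.5%) lower. Their absolute log2 fold change had a median of 0.61, and the signed median over all autosomal genes was 0.03. The 10 and the 3 libraries did not overlap for 2427 genes (20.8%), 10.2% higher and 10.7% lower, among them 98 of the 137 DEGs. Most DEGs were weakly expressed: 15 reached a mean log2(CPM + 0.1) of 3, 36 had 3 counts or fewer in every Hyper library and 5 in every DOX and MYO library. Of the 137 DEGs, 64 were DEGs in each of the 13 fits without 1 library. Without Hyper1 there were 98 DEGs and 2128 calls at the FDR threshold, and without Hyper3 there were 210 DEGs. With 10 counts required in every library, 10 DEGs were higher and 20 lower. Another 1453 tested genes had no chromosome match and were not counted, with 24 higher and 60 lower DEGs. Over all 13552 genes tested, 117 DEGs were higher and 120 lower.

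**Figure D1:**
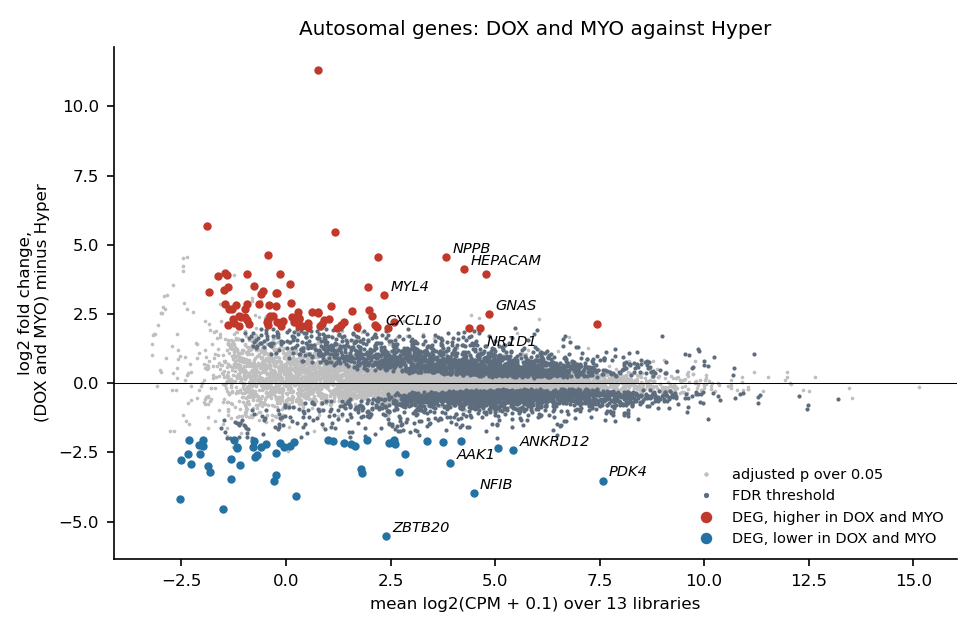
Each point is 1 of the 11648 autosomal genes, with its mean log2(CPM + 0.1) over the 13 libraries on the x axis and its log2 fold change, DOX and MYO minus Hyper, on the y axis. The 83 higher DEGs are red, the 54 lower DEGs blue, and other genes at the FDR threshold dark grey; most DEGs lie at low expression, and NPPB, HEPACAM, GNAS, NFIB and PDK4 stand out among the abundant genes.

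The direction of the differences followed the base composition of the genes. In the decile of autosomal genes with the lowest GC content of exons, the median log2 fold change was -0.28, with 34.8% of genes lower and 1.46% higher at the FDR threshold. In the decile with the highest GC content it was 0.45, with 43.2% higher and 3.09% lower. The decile with the shortest exons had a median of -0.17 and 33.2% of genes lower. By library, the level of the genes highest in GC minus that of the lowest, each relative to its mean over the 19 libraries, was between -0.02 and 0.31 on the log2 scale in DOX and MYO, and -1.16, -0.40 and -0.13 in Hyper1, Hyper2 and Hyper3. With an offset for GC content and length in the same fit, an alternative chosen after seeing the data, 111 DEGs and 2603 calls at the FDR threshold were found. Of the original calls, 101 of 137 DEGs and 2001 of 3808 at the FDR threshold were made again in the same direction. Values with this offset are given where it ended a call or moved a list. Where the count of a list moved by over 1.5 times, or its median by over 0.15, without 1 library or with the offset, the counts then found are given at the end of the paragraph. Where leaving out 1 library ended the call of a gene, the highest adjusted p of those fits stands beside it.

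**Figure D2:**
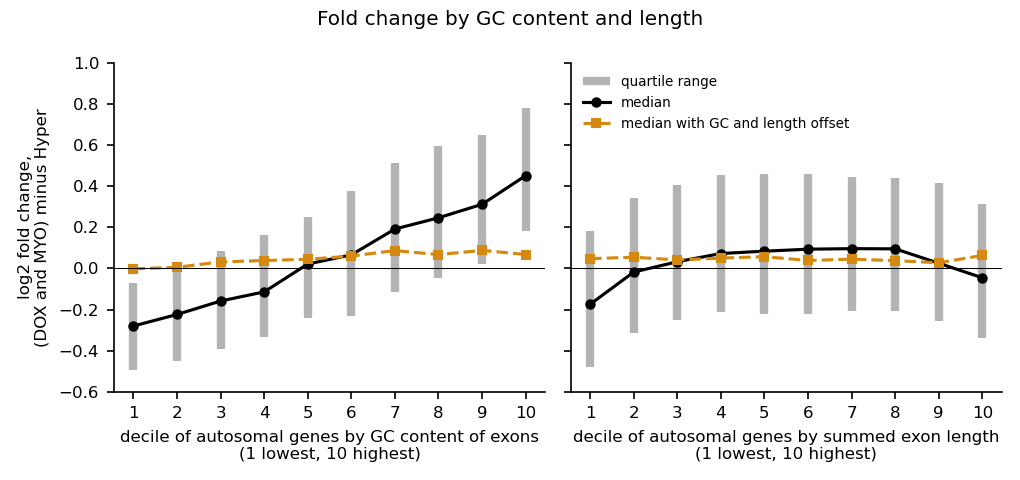
Autosomal genes are split into deciles by GC content of exons (left) and summed exon length (right), and the y axis is the log2 fold change, DOX and MYO minus Hyper. Black points are medians, grey bars span the quartiles, and orange squares are medians with the GC and length offset; the black medians climb from -0.28 to 0.45 with GC content, and the orange ones do not exceed 0.09.

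Of the DEGs at or above that mean level whose groups did not overlap, 5 were higher in DOX and MYO. NPPB, which encodes B-type natriuretic peptide, the ventricular hormone of wall stress (ENSSSCG00000003431, chr6:71930374-71931843 of Sscrofa11.1), ranged from 7.55 to 202 CPM (median 28.8) in the 10 libraries and stood at 0.618, 2.56 and 1.81 CPM in Hyper1, Hyper2 and Hyper3 (log2 fold change 4.56 ± 0.95 (SE), adjusted p = 0.00144; n = 10 and 3). The highest of the 10 by far was MYO2. HEPACAM, an immunoglobulin-like adhesion molecule (chr9:52115494-52131801), ranged from 15.7 to 349 CPM (median 23.3) against 2.06, 3.24 and 3.22 CPM (log2 fold change 4.11 ± 0.87 (SE), adjusted p = 0.00169). Its highest value, in DOX1, was well above the next, 73.0 CPM.

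The promoters of both genes are shown because they carry M-CAT elements, the letters CATTCC on either strand that TEAD factors bind in muscle genes. Each run is the 250 bases before the annotated start of the gene in the RefSeq annotation of Sscrofa11.1, written 5′ to 3′ on the strand of the gene, which is the minus strand for both, with the M-CAT letters in capitals. The NPPB run lies at chr6:71931844-71932093 and the HEPACAM run at chr9:52131802-52132051.
NPPB: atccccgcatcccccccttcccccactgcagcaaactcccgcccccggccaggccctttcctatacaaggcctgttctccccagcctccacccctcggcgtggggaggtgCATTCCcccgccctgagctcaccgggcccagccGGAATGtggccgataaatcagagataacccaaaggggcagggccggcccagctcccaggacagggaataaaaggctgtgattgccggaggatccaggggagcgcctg
HEPACAM: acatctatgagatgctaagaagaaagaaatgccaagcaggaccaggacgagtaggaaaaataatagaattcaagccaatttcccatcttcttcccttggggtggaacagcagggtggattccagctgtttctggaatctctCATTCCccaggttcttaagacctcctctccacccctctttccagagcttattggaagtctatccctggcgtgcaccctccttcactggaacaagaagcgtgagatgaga

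In NPPB the letters begin 140 and 107 bases before the gene start and in HEPACAM 109. The NPPB run also holds 1 GATA match, AGATAA on either strand, at 86 bases, and 1 glucocorticoid half-site, TGTTCT on either strand, at 178 bases. M-CAT letters were found in the same window of 9.56% of 11626 promoters, GATA letters in 6.43% and glucocorticoid half-sites in 8.46%. Of the 19 leading or preselected genes that were called, 4 held an M-CAT match, 3 of the 9 higher ones and, among the lower ones, NFIB. GATA letters and glucocorticoid half-sites were each in 1 of the 19. Other motifs searched were the interferon element ISRE, in 2 of the 19, and the E-box, FoxO and TATA box letters, in 0. A match describes the sequence and was not tested as a binding site.

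GNAS, the stimulatory G protein alpha subunit that couples beta-adrenergic receptors to adenylyl cyclase (chr17:58985580-59053022), was the most even of the 5, from 35.1 to 57.5 CPM (median 41.9) in DOX and MYO and 8.86, 7.38 and 6.64 CPM in Hyper (log2 fold change 2.50 ± 0.18 (SE), adjusted p = 1.03e-08). NR1D1, the clock repressor REV-ERB alpha (chr12:22263549-22274131), ranged from 13.7 to 73.9 CPM (median 34.0) against 7.83, 11.4 and 8.98 CPM (log2 fold change 2.0 ± 0.45 (SE), adjusted p = 0.0024). For CXCL10, an interferon-induced chemokine (chr8:71693641-71695948), the range was 13.9 to 185 CPM against 6.60, 10.2 and 8.58 CPM (log2 fold change 2.01 ± 0.63 (SE), adjusted p = 0.0203). The groups did not overlap for any of these genes because the rule asked for it, and CXCL10 in DOX5 was far above the other 9 libraries. CXCL10 (adjusted p = 0.103) was not called when any 1 Hyper library was left out.

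Among the lower genes, 8 met the same rule, and all but PDK4 had an SE of 0.26 or less. NFIB, a nuclear factor I transcription factor (chr1:208182397-208427504), was at 7.92 to 14.7 CPM in the 10 libraries and at 164, 229.9 and 167 CPM in Hyper (log2 fold change -3.97 ± 0.15 (SE), adjusted p = 3.29e-12). PDK4, the kinase that shuts pyruvate dehydrogenase when fatty acids are burnt (chr9:75246956-75260134), ranged from 34.2 to 285 CPM (median 124) against 2614, 1078 and 868 CPM (log2 fold change -3.52 ± 0.48 (SE), adjusted p = 3.29e-05). Lack of overlap was part of the rule for the lower genes as well. AAK1, a kinase of clathrin adaptors (chr3:72793977-72960315), had a log2 fold change of -2.88 ± 0.17 (SE) (adjusted p = 8.47e-10), and APOD, a lipid-binding lipocalin (chr13:132514546-132562594), a log2 fold change of -2.33 ± 0.23 (SE) (adjusted p = 7.86e-07). Values for the chromatin-associated ANKRD12 and RSF1, the kinase HIPK2 and CREBRF, a regulator of CREB3, were -2.42 ± 0.11, -2.09 ± 0.11, -2.13 ± 0.26 and -2.08 ± 0.20 on the same scale, with adjusted p of 3.19e-11, 1.46e-10, 8.61e-06 and 5.34e-07.

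ZBTB20, a zinc finger repressor (chr13:144855821-145668320), was listed at 1.12 to 2.88 CPM in DOX and MYO and at 99.8, 108 and 87.2 CPM in Hyper (log2 fold change -5.51 ± 0.15 (SE), adjusted p = 2.20e-14). The 6 libraries of the other groups split in the same manner, 80.7 to 90.7 CPM in Control and 3.10 to 3.65 CPM in RemoLV. NFIB was at 112 to 180.2 CPM in Control and 14.8 to 25.1 CPM in RemoLV, and ANKRD12 at 144 to 198 CPM in Control and 31.4 to 34.3 CPM in RemoLV. In GNAS the split was the reverse, 6.00 to 9.74 CPM in Control and 55.3 to 71.3 CPM in RemoLV. The deposited table gives these 6 libraries each other's group names, so the titles Control and RemoLV are used here only as names. Over the 137 DEGs, the Control libraries lay nearer to Hyper for 109 and the RemoLV libraries nearer to DOX and MYO for 86. The exons of ZBTB20, NFIB, ANKRD12, RSF1, CREBRF and PDK4 were in the decile lowest in GC, below 40.02%. With the GC and length offset, the log2 fold change was -5.26 for ZBTB20, -3.72 for NFIB and -3.13 for PDK4.

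**Figure D3:**
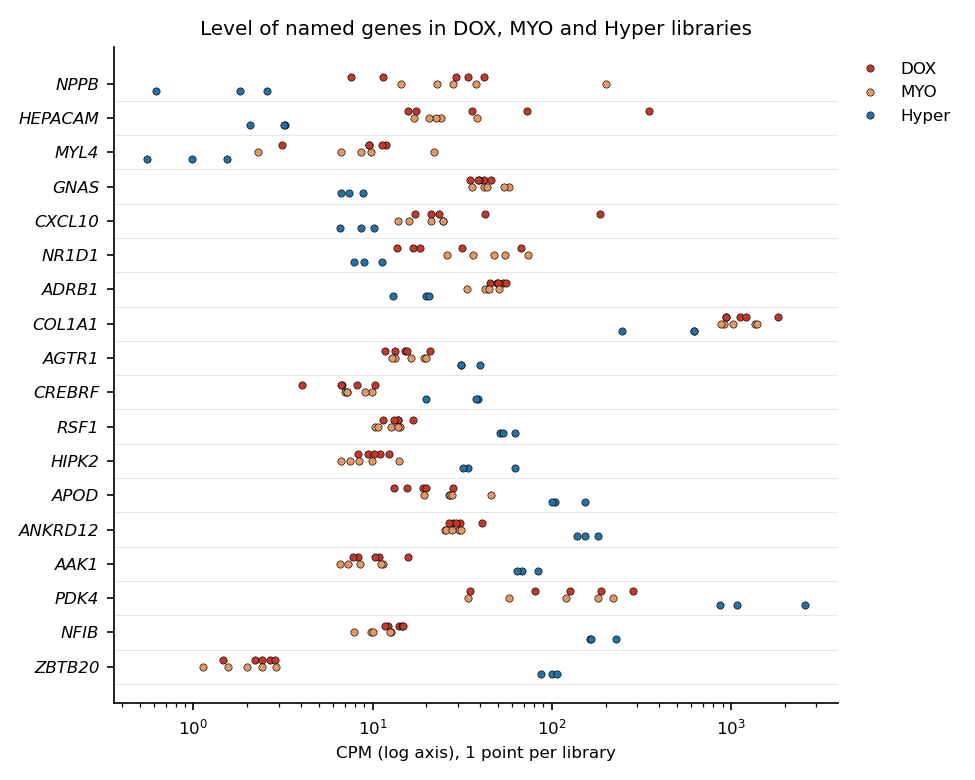
CPM on a log axis, 1 point per library, for the 13 leading genes and for ZBTB20, MYL4, ADRB1, AGTR1 and COL1A1, with DOX in red, MYO in orange and Hyper in blue, ordered by log2 fold change. In all 18 genes the Hyper points lie apart from the 10 others, narrowly for CXCL10, NR1D1 and COL1A1 and widely for ZBTB20 and NFIB. The 13 leading genes were chosen for this lack of overlap, and preselected genes that overlapped, such as TNNT1, FOS and TOP2B, are not shown.

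Some DEGs at lower levels had a pattern of their own and were picked after their values were seen. ACSM5, a mitochondrial medium-chain acyl-CoA synthetase, had 383 to 608 counts in DOX3, DOX5, MYO1, MYO2, MYO4 and MYO5, and 0 or 1 count in DOX1, DOX2, DOX4, MYO3 and all Hyper libraries, and its mean in the 10 was at least 102-fold above the level of 3 counts in a Hyper library (adjusted p = 0.036). The groups overlapped. WWC1, the Hippo pathway scaffold KIBRA, ranged from 0.594 to 19.1 CPM (median 4.58) against 0.0687, 0.150 and 0.201 CPM, at least 29.2-fold higher than that floor (adjusted p = 0.00253). PDYN, the precursor of dynorphin, had a log2 fold change of 4.58 ± 1.25 (SE) (adjusted p = 0.00937). NFAT5, the transcription factor of the response to osmotic stress, was lower in each of the 10 libraries, with a log2 fold change of -3.22 ± 0.18 (SE) (adjusted p = 7.26e-10). Without Hyper1, PDYN (adjusted p = 0.0513) was not called. ACSM5 (adjusted p = 0.116) was not called when any 1 Hyper library was left out. ACSM5 (adjusted p = 0.052) was not called with the GC and length offset.

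Gene lists were then described by their autosomal members, as the number called at the FDR threshold in each direction and the median log2 fold change. The same over all autosomal genes was 16.2% higher, 16.5% lower and a median of 0.03. These calls changed with the setting too. Without Hyper1 they were 953 higher and 1175 lower of 11815 genes, and without Hyper2 1262 and 1519 of 11814. Without Hyper3 they were 1899 and 1940 of 11813, and with the offset 1329 and 1274 of 11648. Without 1 DOX or MYO library, between 3570 and 3871 genes were called in both directions together. The counts of a list under these settings are to be read beside these. Of the 15 ventricular sarcomere genes, 4 were lower and none higher (median -0.26). Cardiac troponin T, TNNT2, ranged from 7371 to 10542 CPM (median 8667) against 11284, 13530.0 and 13748 CPM (log2 fold change -0.58 ± 0.11 (SE), adjusted p = 7.03e-04). The M-band gene MYOM2 was lower by a similar size (-0.51 ± 0.11, adjusted p = 0.00218), as was troponin C, TNNC1 (-0.47 ± 0.10, adjusted p = 0.00188). MYH7 and the regulatory light chain MYL2 were not called, at -0.15 ± 0.13 (adjusted p = 0.423) and -0.54 ± 0.29 (adjusted p = 0.169). The TMM-scaled sum of ventricular markers given above was lower as well, and its part in this list was not tested. TNNC1 (adjusted p = 0.764) was not called with the GC and length offset. For the ventricular markers, the counts became 1 higher and 1 lower with the offset (median -0.08).

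Of 9 sarcomere isoforms of atrium, skeletal or smooth muscle, 3 were higher (MYL4, MYL7 and MYL9) and none lower (median 0.79). The atrial essential light chain MYL4 (chr12:16774655-16792213) ranged from 2.30 to 21.9 CPM (median 9.60) in the 10 libraries and was at 0.550, 0.978 and 1.54 CPM in Hyper (log2 fold change 3.19 ± 0.63 (SE), adjusted p = 9.68e-04). The groups did not overlap, although both levels are low beside the 6029 to 8130.0 CPM in the libraries titled RemoLV. The atrial regulatory light chain MYL7 overlapped, with Hyper3 at 1229 CPM and Hyper1 and Hyper2 at 172 and 287 CPM (log2 fold change 1.17 ± 0.43 (SE), adjusted p = 0.0425). The smooth muscle light chain MYL9 was at 0.79 ± 0.21 (adjusted p = 0.0073). Slow skeletal troponin T, TNNT1, had values from 57.2 to 200.1 CPM (median 132) against 47.5, 54.4 and 99.3 CPM and was not called (log2 fold change 0.91 ± 0.41 (SE), adjusted p = 0.0997). The atrial marker list, 2 of whose 4 autosomal members were called, summed from 759.7 to 2404 CPM (median 1210.3) in the 10 libraries and to 192, 306 and 1251 CPM in Hyper1, Hyper2 and Hyper3, and its part in these values was not tested. MYL7 (adjusted p = 0.221) was not called in 8 of the 13 fits without 1 library, with the highest adjusted p without Hyper1. Without Hyper1, MYL9 (adjusted p = 0.064) was not called. For the list of other isoforms, the counts became 1 higher and 0 lower without Hyper1. For the atrial markers, the counts became 1 higher and 0 lower without DOX1, DOX2, MYO2, MYO3, MYO4 or MYO5, 1 higher and 0 lower (median 0.44) without Hyper1, 1 higher and 0 lower (median 0.46) without Hyper2, 2 higher and 0 lower (median 1.32) without Hyper3 and 2 higher and 0 lower with the offset (median 0.86).

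Among 15 stretch and hypertrophy genes, NPPB, the serum response factor SRF and the cardiac transcription factor GATA4 were higher and none was lower (median 0.12). GATA4 ranged from 142 to 179 CPM (median 155) against 88.2, 113 and 104 CPM (log2 fold change 0.63 ± 0.09 (SE), adjusted p = 5.15e-05) and SRF had a log2 fold change of 0.67 ± 0.18 (SE) (adjusted p = 0.0077). NPPA, the other natriuretic peptide, was not among the gene symbols and was not analysed here. In calcium cycling, 2 of 15 genes were higher and 4 lower (median -0.17). JPH2, which ties T-tubules to the sarcoplasmic reticulum, ranged from 129.5 to 185 CPM (median 149) against 53.4, 54.7 and 77.3 CPM (log2 fold change 1.30 ± 0.12 (SE), adjusted p = 4.39e-07). TRDN, the triadin that anchors calsequestrin at the release channel, was lower in all 10 libraries, from 49.7 to 91.6 CPM (median 59.3) against 217, 246 and 164 CPM (log2 fold change -1.68 ± 0.14 (SE), adjusted p = 1.17e-07). The calcium sensor S100A1 was lower too (-1.19 ± 0.27, adjusted p = 0.00292). The pump ATP2A2 (0.02 ± 0.14, adjusted p = 0.937) and the release channel RYR2 (-0.32 ± 0.18, adjusted p = 0.179) were not called. SRF (adjusted p = 0.165) was not called with the GC and length offset. For the stretch list, the counts became 3 higher and 1 lower without DOX1 and 3 higher and 2 lower (median 0.29) without Hyper3.

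Adrenergic signalling genes were called higher in 5 of 16 and lower in 2 (median 0.27). The beta-1 receptor ADRB1 (chr14:124400330-124401739) ranged from 33.7 to 55.3 CPM (median 47.2) in DOX and MYO against 13.1, 19.8 and 20.6 CPM in Hyper, without overlap (log2 fold change 1.39 ± 0.17 (SE), adjusted p = 7.26e-06). GNAS, described above, and the cardiac adenylyl cyclase ADCY5 (0.88 ± 0.19, adjusted p = 0.00157) were also higher. The lower members were the phosphodiesterase PDE4D (-0.61 ± 0.15, adjusted p = 0.00571) and the anchoring protein AKAP6 (-0.43 ± 0.10, adjusted p = 0.00313). The angiotensin II receptor AGTR1 (chr13:88934873-88980317) was lower, from 11.7 to 21.0 CPM (median 15.4) against 39.6, 31.2 and 31.2 CPM (log2 fold change -1.10 ± 0.15 (SE), adjusted p = 4.21e-05), while the angiotensin converting enzyme ACE (-0.16 ± 0.26, adjusted p = 0.678) and neprilysin, MME (-0.73 ± 0.45, adjusted p = 0.221), were not called. Without Hyper1, PDE4D (adjusted p = 0.129) and AKAP6 (0.0701) were not called. ADCY5 (adjusted p = 0.0603) was not called with the GC and length offset. For the adrenergic list, the counts became 4 higher and 0 lower without Hyper1 and 3 higher and 3 lower with the offset (median 0.07).

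Of 16 potassium and sodium channel genes, 2 were higher and 2 lower (median -0.06), against 32.7% called among all autosomal genes. The slow delayed rectifier KCNQ1 had a log2 fold change of 0.36 ± 0.09 (SE) (adjusted p = 0.00454). KCNQ1 changed sign to -0.24 with the GC and length offset. Of 17 genes of the dystrophin-glycoprotein complex and costamere, TLN1 was higher (0.40 ± 0.15, adjusted p = 0.0456), and DTNA (-0.61 ± 0.13, adjusted p = 0.00173) and SGCD (-0.49 ± 0.13, adjusted p = 0.00608) were lower (median 0.08). TLN1 (adjusted p = 0.33) was not called in 10 of the 13 fits without 1 library, with the highest adjusted p without Hyper1. Without Hyper1, SGCD (adjusted p = 0.0638) was not called. KCNQ1 (adjusted p = 0.0945) and TLN1 (0.605) were not called with the GC and length offset. For the channel genes, the counts became 1 higher and 2 lower without DOX1, DOX2, DOX3 or MYO2, 2 higher and 1 lower without MYO1, MYO4 or MYO5, 1 higher and 0 lower without Hyper1 or Hyper2 and 0 higher and 0 lower with the offset (median -0.02). For the dystrophin list, the counts became 0 higher and 2 lower without DOX1, DOX2, DOX3, DOX4, MYO1, MYO2, MYO3, MYO4 or Hyper2, 0 higher and 1 lower without Hyper1, 2 higher and 3 lower without Hyper3 and 2 higher and 4 lower with the offset (median 0).

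Of 14 collagen genes of the extracellular matrix, 13 were higher and none lower in DOX and MYO (median 0.90), against 16.2% of all autosomal genes. The fibrillar collagen gene COL1A1 (chr12:26379087-26397180) ranged from 879.7 to 1840.1 CPM (median 1078) in the 10 libraries and was at 622, 246 and 623 CPM in Hyper (log2 fold change 1.23 ± 0.28 (SE), adjusted p = 0.00257). For COL3A1 (chr15:93556914-93595678) the values ran from 2483 to 3417 CPM (median 2686) against 1914, 667 and 1526 CPM (log2 fold change 1.05 ± 0.24 (SE), adjusted p = 0.00276). Neither gene overlapped between the groups, and Hyper2 was the lowest of all 13 libraries in both. COL5A1 (1.13 ± 0.20), COL1A2 (1.04 ± 0.26) and COL12A1 (1.09 ± 0.40) had adjusted p of 3.70e-04, 0.00527 and 0.045. Their median GC content was 57.4%. COL12A1 (adjusted p = 0.213) was not called in 9 of the 13 fits without 1 library, with the highest adjusted p without Hyper2. COL12A1 (adjusted p = 0.0545) was not called with the GC and length offset. Without Hyper2, 9 of the 14 collagens were higher (median 0.69). For the collagen list, the counts became 9 higher and 0 lower (median 0.69) without Hyper2, 13 higher and 0 lower (median 1.06) without Hyper3 and 8 higher and 0 lower with the offset (median 0.51).

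The fibroblast marker list holds these collagens, and the 3 of its 8 members that were called were COL1A1, COL1A2 and COL3A1, all higher. It summed from 4709 to 7251 CPM (median 5434) in the 10 libraries and to 3974, 1646 and 3573 CPM in Hyper1, Hyper2 and Hyper3. The other 5 fibroblast markers were not called, and their part in the matrix genes was not tested. For the fibroblast markers, the counts became 3 higher and 0 lower (median 0.26) without Hyper2 and 3 higher and 0 lower (median 0.79) without Hyper3.

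Of 22 matrix glycoprotein and crosslinking genes, 11 were higher and none lower (median 0.58). The collagen crosslinking enzyme LOXL2 ranged from 44.5 to 72.6 CPM (median 51.9) against 13.1, 17.8 and 22.9 CPM (log2 fold change 1.64 ± 0.23 (SE), adjusted p = 4.33e-05). CCN2, connective tissue growth factor, overlapped, from 49.5 to 1348 CPM (median 231) against 38.4, 99.8 and 77.8 CPM (log2 fold change 2.13 ± 0.73 (SE), adjusted p = 0.0322). Fibronectin, FN1, was called (1.04 ± 0.26, adjusted p = 0.00592), and periostin, POSTN, was not (0.33 ± 0.37, adjusted p = 0.512). Among 19 matrix proteolysis genes, 8 were higher and 1 lower (median 0.64). The membrane metallopeptidase MMP14 (1.15 ± 0.17, adjusted p = 8.86e-05) and the gelatinase MMP2 (0.81 ± 0.15, adjusted p = 4.44e-04) were higher, the aggrecanase ADAMTS5 lower (-1.03 ± 0.17, adjusted p = 2.48e-04). MMP9 was at 2.13 CPM or less in all 13 libraries and was not called (adjusted p = 0.841). CCN2 (adjusted p = 0.155) was not called when any 1 Hyper library was left out. For the glycoprotein list, the counts became 10 higher and 1 lower without DOX1 or MYO2, 6 higher and 0 lower (median 0.38) without Hyper2 and 9 higher and 1 lower with the offset (median 0.60). For the proteolysis list, the counts became 5 higher and 1 lower without Hyper1 and 9 higher and 2 lower (median 0.89) without Hyper3.

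In TGF-beta signalling, 8 of 25 genes were higher and 1 lower (median 0.11). The ligand TGFB3 ranged from 13.1 to 56.2 CPM (median 18.8) against 8.38, 6.40 and 12.6 CPM (log2 fold change 1.20 ± 0.35 (SE), adjusted p = 0.0147), and TGFB1 (0.40 ± 0.12, adjusted p = 0.0155) and TGFB2 (0.61 ± 0.23, adjusted p = 0.0471) were higher by less. LTBP2 and LTBP3, of the family of latent TGF-beta binding proteins, were at 1.38 ± 0.31 and 0.78 ± 0.17 (adjusted p = 0.00248 and 0.00242). The lower gene was BMP4 (-0.75 ± 0.22, adjusted p = 0.0157). TGFB3 (adjusted p = 0.0862) was not called when Hyper1 or Hyper2 was left out. Without Hyper1, TGFB1 (adjusted p = 0.104) was not called. TGFB2 (adjusted p = 0.168) was not called in 9 of the 13 fits without 1 library, with the highest adjusted p without Hyper1. BMP4 (adjusted p = 0.0863) was not called when Hyper1 or Hyper3 was left out. TGFB1 (adjusted p = 0.197) and LTBP3 (0.171) were not called with the GC and length offset. For the TGF-beta list, the counts became 4 higher and 0 lower without Hyper1, 5 higher and 1 lower without Hyper2, 8 higher and 0 lower (median 0.29) without Hyper3 and 4 higher and 1 lower with the offset (median 0.21).

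**Figure D4:**
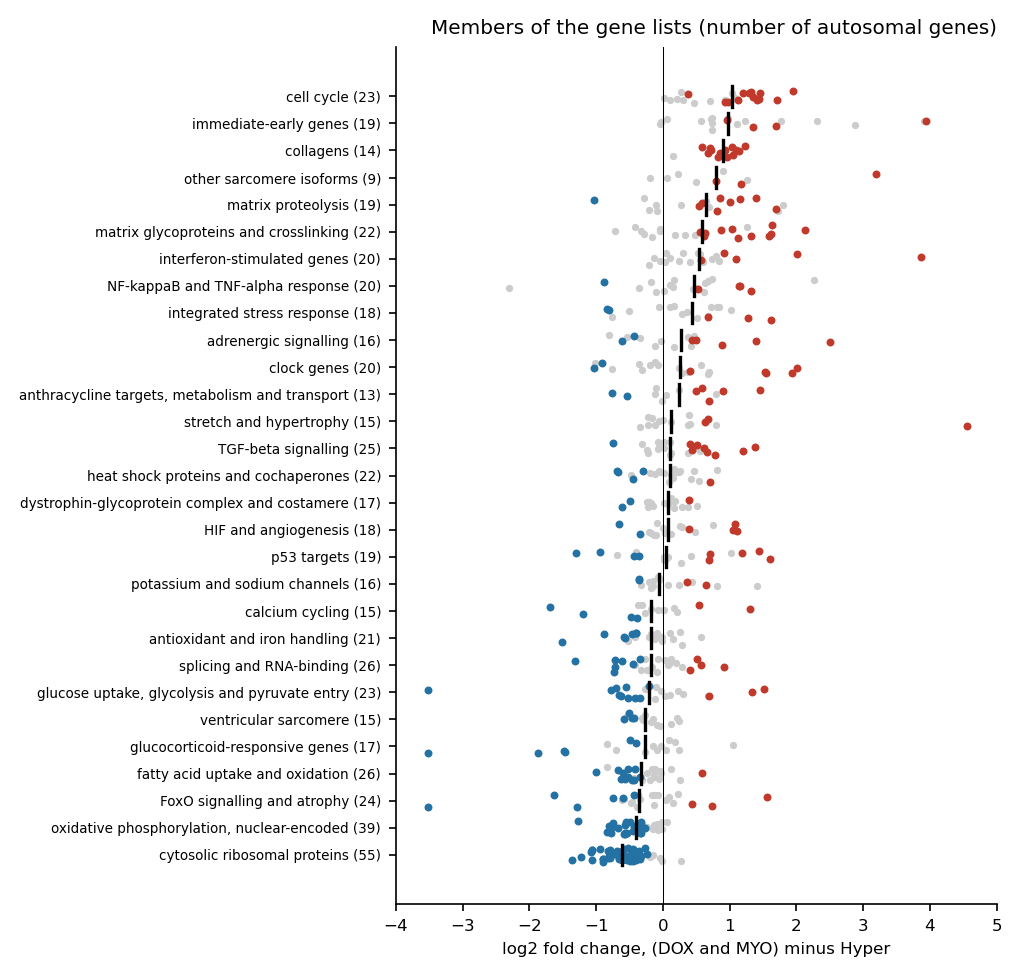
The log2 fold change, DOX and MYO minus Hyper, of each autosomal member of 29 gene lists, ordered by the list median (black bar), with the number of members in brackets. Red points were higher and blue points lower at the FDR threshold, grey points were not called. The order of the lists changes with the GC and length offset and without single libraries (the immediate-early median is 0.04 without DOX1).

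Of 39 nuclear-encoded oxidative phosphorylation genes, 31 were lower and none higher in DOX and MYO (median -0.40), against 16.5% of all autosomal genes. The list summed from 9996 to 12027 CPM (median 10954) in the 10 libraries and to 14079, 15517 and 14627 CPM in Hyper1, Hyper2 and Hyper3, with no overlap. COX6A2, the striated muscle subunit of cytochrome c oxidase, ranged from 233 to 334 CPM (median 284) against 484, 774 and 794 CPM (log2 fold change -1.28 ± 0.15 (SE), adjusted p = 4.60e-06). The complex I subunit NDUFS4 (-0.84 ± 0.08, adjusted p = 8.91e-07) and COX7A1 (-0.81 ± 0.09, adjusted p = 5.96e-06) were lower too. These are short genes, with a median exon length of 880.0 bases. The TMM-scaled sum of ventricular markers was lower as well, and its part in this and the next 2 lists was not tested. Of the 13 mitochondrially encoded genes, 9 were lower (median -0.71). For the oxidative phosphorylation list, the counts became 0 higher and 19 lower without Hyper2 and 3 higher and 15 lower with the offset (median -0.16).

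Of 26 genes of fatty acid uptake and oxidation, 1 was higher and 11 lower (median -0.32). CPT1A, which admits long-chain fatty acids to mitochondria, ranged from 11.9 to 26.3 CPM (median 17.4) against 40.6, 32.7 and 33.9 CPM (log2 fold change -1.0 ± 0.19 (SE), adjusted p = 7.33e-04). The lipase LPL (-0.62 ± 0.18, adjusted p = 0.0118) and the fatty acid binding protein FABP3 (-0.47 ± 0.17, adjusted p = 0.0368) were lower and overlapped. The transporter SLC27A1 was the higher gene (0.58 ± 0.08, adjusted p = 2.96e-05). Adipocyte markers summed from 97.1 to 165 CPM (median 126) in the 10 libraries and to 185, 184 and 220.3 CPM in Hyper1, Hyper2 and Hyper3 (exact 2-sided permutation test, adjusted p = 0.0175, but p = 0.0769 on CPM without TMM scaling), and 1 of 5, FABP4, was called lower. Their part in the list was not tested. Without Hyper1, LPL (adjusted p = 0.127) was not called. FABP3 (adjusted p = 0.155) was not called in 6 of the 13 fits without 1 library, with the highest adjusted p without Hyper2. LPL (adjusted p = 0.11) and FABP3 (0.83) were not called with the GC and length offset. For the fatty acid list, the counts became 1 higher and 6 lower without Hyper1, 1 higher and 7 lower without Hyper2 and 2 higher and 8 lower with the offset (median -0.33). For the adipocyte markers, the counts became 0 higher and 1 lower (median -0.87) without MYO3, 0 higher and 1 lower (median -0.15) without Hyper1, 0 higher and 0 lower without Hyper3 and 0 higher and 0 lower with the offset (median -0.59).

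In glucose uptake, glycolysis and pyruvate entry, 3 of 23 genes were higher and 10 lower (median -0.21). The list summed from 13540.0 to 15851 CPM (median 14515) in the 10 libraries and to 21188, 22285 and 20049 CPM in Hyper1, Hyper2 and Hyper3. GAPDH, the glycolytic enzyme often taken as a reference gene, made up much of that sum, with values from 4407 to 5625 CPM (median 5141) against 8011, 9923 and 8258 CPM (log2 fold change -0.78 ± 0.12 (SE), adjusted p = 1.30e-04). Glycogen phosphorylase of muscle, PYGM, was lower (-0.70 ± 0.16, adjusted p = 0.00262), as was PDK4, described above. In the other direction, hexokinase 2, HK2, ranged from 15.8 to 49.5 CPM (median 30.6) against 4.74, 10.1 and 18.2 CPM (log2 fold change 1.51 ± 0.34 (SE), adjusted p = 0.00246), and PFKFB2, which makes the activator of phosphofructokinase, had a log2 fold change of 1.34 ± 0.23 (SE) (adjusted p = 2.55e-04). PFKFB2 overlaps C4BPB on the same strand, so its counts are uncertain. Lactate dehydrogenase A, LDHA, was higher (0.70 ± 0.20, adjusted p = 0.0119), and the insulin-responsive transporter SLC2A4 was not called (-0.23 ± 0.13, adjusted p = 0.182). Without Hyper1, LDHA (adjusted p = 0.0764) was not called. For the glucose list, the counts became 5 higher and 10 lower with the offset (median -0.31).

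Of 55 cytosolic ribosomal protein genes, 50 were lower and none higher (median -0.61). They summed from 15687 to 19028 CPM (median 17932) in the 10 libraries and to 24704, 26833 and 25660.0 CPM in Hyper1, Hyper2 and Hyper3. RPS28 ranged from 159.6 to 205 CPM (median 193) against 415, 506 and 522 CPM (log2 fold change -1.36 ± 0.10 (SE), adjusted p = 2.18e-08), and RPL38 (-1.22 ± 0.08, adjusted p = 4.96e-09) and RPL31 (-1.08 ± 0.07, adjusted p = 7.23e-09) followed. The size differed within the family, since RPL3 was not called (-0.15 ± 0.10, adjusted p = 0.264) and RPL4 was at -0.34 ± 0.08 (adjusted p = 0.00306). Ribosomal protein genes are short, with a median exon length of 802 bases, and have many processed copies in the genome, between which reads can be split. RPL4 (adjusted p = 0.643) was not called with the GC and length offset. For the ribosomal protein list, the counts became 1 higher and 50 lower without DOX4 and 1 higher and 33 lower with the offset (median -0.30).

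**Figure D5:**
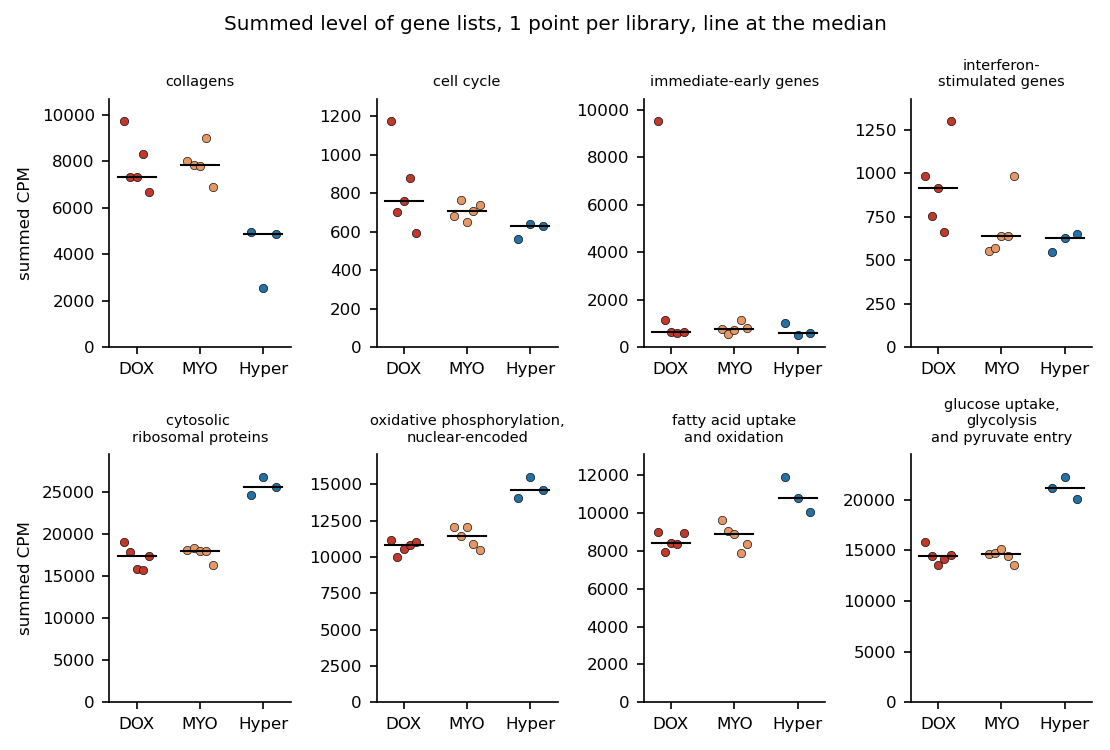
Summed CPM of the members of 8 gene lists, 1 point per library, with a line at the median of each group and a y axis from 0. For ribosomal proteins, oxidative phosphorylation, fatty acid and glucose metabolism the 3 Hyper points lie above all 10 DOX and MYO points, for collagens below them, and in the immediate-early panel DOX1 stands alone at 9502 CPM. All sums use TMM scaling, and sums without it are not given for these lists. For ventricular markers, the higher sum in Hyper did not hold without that scaling (exact 2-sided permutation test, p = 0.913).

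Among 22 heat shock genes, 1 was higher and 4 lower (median 0.11). The chaperone of the endoplasmic reticulum HSPA5 was higher (0.70 ± 0.24, adjusted p = 0.0342), and the mitochondrial HSPE1 lower (-0.68 ± 0.12, adjusted p = 2.89e-04), at 0.01 with the GC and length offset. In the integrated stress response, 3 of 18 were higher and 2 lower (median 0.44). The higher genes were enzymes of phosphoenolpyruvate, serine and folate metabolism, PCK2 (1.62 ± 0.33, adjusted p = 0.00136), PHGDH (1.28 ± 0.44, adjusted p = 0.0323) and MTHFD2 (0.68 ± 0.26, adjusted p = 0.0476), while the transcription factor ATF4 was not called (0.36 ± 0.26, adjusted p = 0.309). Of 26 splicing and RNA-binding genes, 4 were higher and 7 lower (median -0.18). SON, a scaffold of nuclear speckles, ranged from 142 to 192 CPM (median 159) against 397, 409 and 385 CPM (log2 fold change -1.31 ± 0.08 (SE), adjusted p = 2.55e-09), and the muscle splicing factor RBM24 was higher (0.92 ± 0.28, adjusted p = 0.0163). The cardiac splicing factor RBM20 was at 0.57 ± 0.21 (adjusted p = 0.0461). HSPA5 (adjusted p = 0.136) was not called when any 1 Hyper library was left out. PHGDH (adjusted p = 0.13) and RBM24 (0.0777) were not called when Hyper1 or Hyper2 was left out. MTHFD2 (adjusted p = 0.262) and RBM20 (0.169) were not called in 8 of the 13 fits without 1 library, with the highest adjusted p without Hyper2 and Hyper3. HSPE1 (adjusted p = 0.956), PHGDH (0.0618) and RBM20 (0.0686) were not called with the GC and length offset. For the heat shock list, the counts became 0 higher and 2 lower without Hyper1 or Hyper2, 0 higher and 4 lower without Hyper3 and 2 higher and 3 lower with the offset (median 0.12). For the integrated stress response, the counts became 2 higher and 1 lower without Hyper1, 1 higher and 1 lower without Hyper2, 3 higher and 1 lower without Hyper3 and 2 higher and 1 lower with the offset (median 0.37). For the splicing list, the counts became 2 higher and 5 lower without Hyper1, 1 higher and 6 lower without Hyper2 and 6 higher and 5 lower with the offset (median 0.01).

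Of 17 glucocorticoid-responsive genes, 6 were lower and none higher (median -0.26). FKBP5, an immunophilin that the glucocorticoid receptor induces, ranged from 33.8 to 119.5 CPM (median 61.7) against 309, 232 and 222 CPM (log2 fold change -1.86 ± 0.28 (SE), adjusted p = 6.83e-05). The zinc finger repressor ZBTB16 had a log2 fold change of -1.48 ± 0.35 (SE) (adjusted p = 0.0039), and PDK4 belongs to this list as well. Neither FKBP5 nor ZBTB16 overlapped between the groups. Among 24 FoxO and atrophy genes, 3 were higher and 6 lower (median -0.35). TXNIP, the inhibitor of thioredoxin, was lower, from 515 to 1616 CPM (median 926) against 2639.7, 2532 and 1744 CPM (log2 fold change -1.29 ± 0.32 (SE), adjusted p = 0.0051), and so was myostatin, MSTN, which overlapped (-1.63 ± 0.39, adjusted p = 0.00394). The higher genes were the insulin signalling genes IRS2 (1.56 ± 0.45, adjusted p = 0.0128), IRS1 (0.73 ± 0.14, adjusted p = 8.26e-04) and AKT2 (0.44 ± 0.07, adjusted p = 2.54e-04), while PIK3R1, a regulatory subunit of PI3K in the same cascade, was among the lower ones. FOXO1 was at 0.05 ± 0.13 (adjusted p = 0.785). Without Hyper1, MSTN (adjusted p = 0.196) and IRS2 (0.0781) were not called. IRS2 (adjusted p = 0.0508) was not called with the GC and length offset. For the glucocorticoid list, the counts became 0 higher and 9 lower (median -0.45) without DOX1. For the FoxO list, the counts became 2 higher and 2 lower without Hyper1.

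Of 20 clock genes, 5 were higher and 2 lower (median 0.26). The higher ones included NR1D1, the repressor BHLHE40, from 39.0 to 384 CPM (median 65.0) against 28.8, 33.3 and 19.7 CPM (log2 fold change 1.94 ± 0.59 (SE), adjusted p = 0.0179), and the output factor DBP (1.54 ± 0.49, adjusted p = 0.0211). RORA (-1.04 ± 0.19, adjusted p = 4.24e-04), an activator that competes with REV-ERB factors, was lower. The core activators ARNTL (-0.36 ± 0.38, adjusted p = 0.49) and CLOCK (-0.07 ± 0.13, adjusted p = 0.696) were not called. The hour at which tissue was taken is not given in the sources used here, and its part in these values was not tested. BHLHE40 (adjusted p = 0.0724) was not called when Hyper1 or Hyper3 was left out. DBP (adjusted p = 0.0906) was not called when Hyper1 or Hyper2 was left out. DBP (adjusted p = 0.0743) was not called with the GC and length offset. For the clock list, the counts became 3 higher and 2 lower without Hyper1 or Hyper2 and 4 higher and 2 lower with the offset (median 0.05).

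Genes tied to the action of anthracyclines did not move in 1 direction. Of 19 p53 targets, 5 were higher and 4 lower (median 0.04). The cell cycle inhibitor CDKN1A ranged from 11.4 to 43.2 CPM (median 22.1) against 7.70, 6.70 and 8.98 CPM (log2 fold change 1.60 ± 0.44 (SE), adjusted p = 0.01), and the exonuclease AEN was higher without overlap (1.45 ± 0.17, adjusted p = 4.60e-06). MDM4, an inhibitor of p53, was lower (-1.30 ± 0.19, adjusted p = 7.44e-05), as was SESN1 (-0.94 ± 0.19, adjusted p = 0.00104), while MDM2 was not called (0.02 ± 0.11, adjusted p = 0.92). CDKN1A (adjusted p = 0.0526) was not called when Hyper1 or Hyper2 was left out. For the p53 list, the counts became 3 higher and 2 lower (median 0.21) without Hyper1, 3 higher and 3 lower without Hyper2 and 5 higher and 2 lower with the offset (median 0.24).

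Of 13 genes of anthracycline targets, metabolism and transport, 5 were higher and 2 lower (median 0.25). TOP2B, the topoisomerase II of cardiomyocytes (chr13:12507738-12575042), overlapped, from 97.3 to 139 CPM (median 116) against 150.5, 119 and 112 CPM, and was not called (log2 fold change -0.12 ± 0.10 (SE), adjusted p = 0.374). TOP2A, that of dividing cells, was higher (1.46 ± 0.38, adjusted p = 0.00696), and TOP1 lower (-0.53 ± 0.14, adjusted p = 0.00842). The drug exporter ABCC1 ranged from 52.4 to 83.2 CPM (median 60.3) against 29.2, 31.3 and 39.4 CPM (log2 fold change 0.89 ± 0.15 (SE), adjusted p = 2.65e-04), without overlap. NQO1, a quinone reductase, was lower (-0.76 ± 0.21, adjusted p = 0.00901). Without Hyper1, TOP2A (adjusted p = 0.0554), TOP1 (0.073) and NQO1 (0.0909) were not called. TOP1 (adjusted p = 0.164) and NQO1 (0.0811) were not called with the GC and length offset. For the anthracycline list, the counts became 5 higher and 2 lower (median 0.09) without MYO5, 2 higher and 0 lower (median 0.07) without Hyper1, 5 higher and 2 lower (median 0.47) without Hyper2 and 3 higher and 0 lower with the offset (median 0.10).

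Antioxidant and iron genes were lower in 7 of 21 and higher in none (median -0.18). The plasma glutathione peroxidase GPX3 ranged from 50.6 to 105 CPM (median 76.7) against 115, 314 and 234 CPM (log2 fold change -1.51 ± 0.24 (SE), adjusted p = 1.66e-04). The cytosolic superoxide dismutase SOD1 (-0.58 ± 0.08, adjusted p = 4.10e-05) and the transcription factor NFE2L2 (NRF2; -0.57 ± 0.12, adjusted p = 0.00209) were lower by less, and the partner of NRF2, KEAP1, was not called (-0.11 ± 0.08, adjusted p = 0.274). SOD1 (adjusted p = 0.11) was not called with the GC and length offset. For the antioxidant list, the counts became 1 higher and 7 lower without DOX5, 1 higher and 5 lower without Hyper1 and 4 higher and 4 lower with the offset (median -0.16).

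Immediate-early genes were higher in 4 of 19 and lower in none, with a median of 0.97 that rested on DOX1. FOS (chr7:98449508-98451971), the classical member, was at 597 CPM in DOX1 and at 2.42 to 34.1 CPM in the other 9 libraries, against 22.9, 2.79 and 7.11 CPM in Hyper, and was not called (log2 fold change 1.78 ± 1.41 (SE), adjusted p = 0.352). ATF3 was called (log2 fold change 3.94 ± 1.45 (SE), adjusted p = 0.0449), with 2212 CPM in DOX1 and a median of 24.5 CPM. KLF6, from 22.9 to 110.5 CPM (median 30.2) against 14.2, 14.3 and 14.3 CPM (log2 fold change 1.34 ± 0.42 (SE), adjusted p = 0.019), and IER3 (1.70 ± 0.54, adjusted p = 0.0222) did not overlap between the groups. ATF3 (adjusted p = 0.14) was not called in 8 of the 13 fits without 1 library, with the highest adjusted p without Hyper2. KLF6 (adjusted p = 0.0797) was not called when any 1 Hyper library was left out. IER3 (adjusted p = 0.101) was not called when Hyper1 or Hyper2 was left out. ATF3 (adjusted p = 0.0616) was not called with the GC and length offset. For the immediate-early list, the counts became 4 higher and 0 lower (median 0.04) without DOX1, 1 higher and 0 lower (median 1.31) without Hyper1, 1 higher and 0 lower without Hyper2, 2 higher and 0 lower without Hyper3 and 2 higher and 0 lower with the offset (median 0.78).

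In the NF-kappaB and TNF-alpha response, 4 of 20 genes were higher and 1 lower (median 0.47). The brake TNFAIP3 ranged from 6.49 to 23.8 CPM (median 11.9) against 4.33, 5.49 and 6.10 CPM (log2 fold change 1.31 ± 0.30 (SE), adjusted p = 0.00283), and RELB was higher (1.16 ± 0.25, adjusted p = 0.0021), whereas the inhibitor NFKBIA was lower (-0.89 ± 0.18, adjusted p = 0.00139). Of 20 interferon-stimulated genes, 5 were higher and none lower (median 0.54). CXCL10 and OASL, an antiviral synthetase-like protein, led the list. OASL had 3 counts or fewer in each Hyper library and a mean in the 10 that was at least 2.31-fold higher than that (adjusted p = 0.0353). IRF7 was also called (1.10 ± 0.37, adjusted p = 0.0292), and ISG15 (0.60 ± 0.37, adjusted p = 0.221) and IFI6 (0.31 ± 0.39, adjusted p = 0.576) were not. IRF7 (adjusted p = 0.163) and OASL (0.14) were not called when any 1 Hyper library was left out. IRF7 (adjusted p = 0.171) was not called with the GC and length offset. For the NF-kappaB list, the counts became 4 higher and 2 lower (median 0.08) without DOX1, 2 higher and 1 lower without Hyper1, 4 higher and 2 lower without Hyper3 and 2 higher and 1 lower with the offset (median 0.29). For the interferon list, the counts became 4 higher and 0 lower (median 0.37) without MYO5, 1 higher and 0 lower without Hyper1 or Hyper2 and 3 higher and 0 lower without Hyper3.

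Of 9 macrophage markers, 5 were higher and 1 lower (median 0.69). The complement gene C1QA ranged from 24.6 to 78.0 CPM (median 33.6) against 20.0, 15.3 and 24.2 CPM (log2 fold change 0.93 ± 0.25 (SE), adjusted p = 0.00903), and AIF1 was at 0.92 ± 0.21 (adjusted p = 0.00295). The summed level overlapped, from 215 to 535 CPM (median 268) in the 10 libraries and at 258, 189 and 282 CPM in Hyper1, Hyper2 and Hyper3. No neutrophil marker was called, with the offset and without any 1 library as well. No marker of T and NK cells was called with all libraries. The T and NK cell markers summed from 12.7 to 51.4 CPM (median 25.4) in the 10 libraries and to 8.93, 22.7 and 12.5 CPM in Hyper1, Hyper2 and Hyper3. Without Hyper2, C1QA (adjusted p = 0.0643) was not called. For the macrophage markers, the counts became 6 higher and 0 lower without DOX2, 3 higher and 1 lower without DOX3 or MYO2, 4 higher and 1 lower (median 0.54) without DOX4, 5 higher and 0 lower without MYO3, 4 higher and 0 lower without MYO4, 3 higher and 0 lower without MYO5, 2 higher and 0 lower without Hyper1, 1 higher and 1 lower without Hyper2, 6 higher and 0 lower (median 0.91) without Hyper3 and 5 higher and 0 lower with the offset (median 0.73). For the T and NK cell markers, the counts became 1 higher and 0 lower without DOX1, DOX2, MYO4 or MYO5, 0 higher and 0 lower (median 0.44) without DOX5, 0 higher and 0 lower (median 0.38) without Hyper1, 3 higher and 0 lower (median 1.11) without Hyper2 and 1 higher and 0 lower with the offset (median 1.01).

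Of 23 cell cycle genes, 13 were higher and none lower (median 1.03). MKI67, the marker of cycling cells, ranged from 5.78 to 18.1 CPM (median 9.78) against 1.79, 2.33 and 5.30 CPM (log2 fold change 1.70 ± 0.44 (SE), adjusted p = 0.00649), and thymidylate synthase, TYMS, ranged from 5.75 to 18.2 CPM (median 9.39) against 2.06, 2.63 and 3.49 CPM (log2 fold change 1.94 ± 0.38 (SE), adjusted p = 9.10e-04). Neither gene overlapped, although both levels were low. The summed list overlapped, from 592 to 1173 CPM (median 724) in the 10 libraries and at 565, 641 and 630.3 CPM in Hyper1, Hyper2 and Hyper3. Which cells were cycling was not measured. Without Hyper1, MKI67 (adjusted p = 0.0578) was not called. For the cell cycle list, the counts became 4 higher and 0 lower without Hyper1, 5 higher and 0 lower (median 0.84) without Hyper2 and 13 higher and 0 lower (median 1.27) without Hyper3.

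Among 18 HIF and angiogenesis genes, 4 were higher and 2 lower (median 0.08). VEGFA ranged from 268 to 713 CPM (median 374) against 165, 217 and 189 CPM (log2 fold change 1.11 ± 0.23 (SE), adjusted p = 0.00128), and its receptor KDR (1.05 ± 0.27, adjusted p = 0.00688) and ANGPT2, which destabilises vessels (1.08 ± 0.24, adjusted p = 0.00239), were higher without overlap. VEGFC (-0.65 ± 0.19, adjusted p = 0.0146) and the angiopoietin receptor TEK (-0.35 ± 0.10, adjusted p = 0.0129) were lower. The oxygen-sensing factors HIF1A (-0.08 ± 0.19, adjusted p = 0.766) and EPAS1 (0.13 ± 0.14, adjusted p = 0.514) were not called. Endothelial markers were called higher in 3 of 8 and lower in 1, and summed from 919 to 1257 CPM (median 1176) in the 10 libraries and to 954, 1102 and 1051 CPM in Hyper1, Hyper2 and Hyper3. Without Hyper1, KDR (adjusted p = 0.0526) and TEK (0.108) were not called. Without Hyper3, VEGFC (adjusted p = 0.0963) was not called. VEGFC (adjusted p = 0.0516) and TEK (0.0749) were not called with the GC and length offset. For the angiogenesis list, the counts became 4 higher and 1 lower without Hyper1 or Hyper3 and 5 higher and 0 lower with the offset (median 0.20). For the endothelial markers, the counts became 0 higher and 0 lower without Hyper1 and 1 higher and 0 lower with the offset (median -0.01).

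DOX and MYO were also set against Hyper separately, with the same 3 Hyper libraries in both. DOX gave 185 DEGs (1.59%), with 126 higher (1.08%) and 59 lower (0.507%), and 3499 calls at the FDR threshold (30.0%), with 15.3% of genes higher and 14.8% lower. MYO gave 104 DEGs (0.893%), with 65 higher (0.558%) and 39 lower (0.335%), and 2970 calls (25.5%), with 12.4% higher and 13.1% lower. Of the 137 DEGs of the pooled comparison, 79 were DEGs in each. Log2 fold changes were 3.91 in DOX and 5.21 in MYO for NPPB, 2.40 in DOX and 2.61 in MYO for GNAS, -3.40 in DOX and -3.63 in MYO for PDK4 and -3.80 in DOX and -4.14 in MYO for NFIB. CXCL10 was at 2.77 in DOX and 1.25 in MYO, with adjusted p of 0.00574 and 0.166. Of the 23 cell cycle genes, 15 were higher in DOX and 4 in MYO, and of the 20 interferon-stimulated genes, 8 and 0. These values depend on the naming of DOX5, which held the highest CXCL10 and which the deposited table names MYO1. With the names of the table, CXCL10 was at 1.57 in DOX (adjusted p = 0.107) and 2.64 in MYO (adjusted p = 0.0158), 2 and 4 interferon-stimulated genes were higher, and cell cycle counts stayed at 15 and 4. Tested directly, DOX against MYO gave 0 autosomal genes at the FDR threshold with edgeR (839 genes, 7.2%, at an unadjusted p under 0.05) and 0 with DESeq2, and the smallest adjusted p among the leading and preselected genes was 0.692.

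Genes of the sex chromosomes were kept out of the counts of DEGs, calls and list members given above. Genes without a chromosome match were kept out of the counts of DEGs as well. Beside the Y-linked genes, 1 of 9 X-linked counterparts, KDM5C, was higher (0.44 ± 0.10, adjusted p = 0.00242) and 7 were lower, among them the initiation factor gene EIF2S3, from 45.5 to 57.5 CPM (median 50.3) against 172, 134 and 113 CPM (log2 fold change -1.47 ± 0.10 (SE), adjusted p = 1.03e-08), and ZFX (-1.02 ± 0.10, adjusted p = 1.27e-06). In DOX and MYO, the Y-linked EIF1AY ranged from 41.6 to 52.7 CPM (median 45.9) and ZFY from 19.9 to 26.7 CPM (median 24.8). KDM5D had 0 counts in all Hyper libraries. A part of sex in the autosomal differences cannot be told apart from that of the treatment. KDM5C (adjusted p = 0.167) was not called with the GC and length offset.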

How the data were processed

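The deposited count files hold whole-number counts per Ensembl gene, which the authors made by aligning read pairs to Sscrofa11.1 (STAR) and assigning them by strand (HTSeq 0.11.1), without normalization. The deposited expression table holds log2-scaled values that the authors transformed with DESeq2, used here only to compare library names, and the authors' own fold changes and adjusted p-values, which were not used. Groups came from the sample titles, and p-values measure the spread between these libraries. Counts were filtered with filterByExpr, scaled by TMM and fitted with edgeR 4.0.16 (R 4.3.3, limma 3.58.1) in a model with 5 groups and no covariate. The mean of DOX and MYO was set against Hyper, and p-values were adjusted over all 13552 genes. Chromosomes, exon lengths and GC content came from the RefSeq annotation of Sscrofa11.1. Genes were named by rule: up to 12 autosomal DEGs with a symbol per direction at a mean log2 CPM of 3 or more without overlap, the leading 3 called members per list and direction, the first 2 of each list, preselected genes and markers. The members, genes and lists were chosen with earlier results of these data known. On simulated counts for the pooled comparison, with 98 genes changed at each size, 73.5% were recovered at a log2 fold change of 1 and 89.8% at 2, with 9 false calls among 13314 genes. The simulation held no shift with GC content or length and no outlying library, so it does not cover false calls from these. Alternatives covered scaling, filters, DESeq2 1.42.0, grouping, a replicate block, glmTreat, a GC and length offset and leaving out each of the 13 libraries. Tables were made with Python 3.11.15, pandas 2.3.3, numpy 2.4.6 and scipy 1.17.1, and plots with matplotlib 3.10.9. Some items are not reported here.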

Additional observations from a re-analysis of the deposited data

Results flagged for a closer look

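Among 94 sets of 5 libraries examined, 8 held a library far from the other 4 by Dixon's test, and chance gives about 1 in 20. In DOX, HEPACAM reached 349.2 CPM in DOX1 against 15.7 to 73.0 CPM in the others, and FOS reached 597.4 CPM in DOX1 against 3.67 to 14.3 CPM. The summed Y-linked genes were also highest in DOX1, at 251.5 CPM against 177 to 195 CPM. CXCL10 was at 185.2 CPM in DOX5 against 17.2 to 42.7 CPM, and ANKRD12 at 40.92 CPM in DOX5 against 26.8 to 30.9 CPM. MYL4 was at 3.133 CPM in DOX3, below the 9.58 to 11.9 CPM of the others. In MYO, NPPB reached 201.9 CPM in MYO2 against 14.4 to 37.8 CPM, and FOS 34.11 CPM in MYO4 against 2.42 to 8.95 CPM. None of these libraries was left out of the values given for its gene.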

How the results depend on the processing

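The pooled comparison had 137 DEGs, 83 higher and 54 lower. Requiring 10 counts in every library left 30, with 10 higher and 20 lower. Testing against a log2 fold change of 1 with glmTreat left 46, with 16 higher and 30 lower. The balance of directions thus turned under both settings. Leaving out 1 library gave 98 (without Hyper1) to 210.0 (without Hyper3). For DOX alone (185) these were 46, 44 and 139 to 278, and for MYO alone (104) 26, 32 and 68 to 172, with the same Hyper libraries at both ends. Fewer genes are tested where 10 counts are required, and glmTreat asks for a larger difference. Of the 273 calls in the gene lists, 7 were made with glmTreat, and 194 to 284 were made without 1 library. With the GC and length offset, KCNQ1 turned to -0.24, HSPE1 to 0.00998 and HSF1, the heat shock transcription factor, to -0.26, and the cause was not tested. Over 190 named genes, 176 of them autosomal, and all settings, 4507 of 4904 values kept direction and side of the threshold, 373 lost the call, 21 gained it and 3 turned. Depth limits the DEGs below the level of 3 counts, where a fold is only a bound.

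Replicate numbers did not pair the libraries, since same-numbered libraries of different groups correlated at -0.164 to 0.109 in their deviations from the group means. With the number as a replicate block, 123 DEGs were found in the pooled comparison, 164 for DOX and 91 for MYO.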
